A study of Bos taurus with 33 samples.

Results

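The endometrial response to human interferon alpha (IFNA) was set against the response to a conceptus on day 15, using 15 of the 33 heifers of the series, 3 in each of 5 groups. The animals were chosen by their labels alone: IFNA, placebo and phosphate-buffered saline (PBS) from the biopsy experiment, and day 15 pregnant and day 15 cyclic from the slaughter experiment. The quantity described is the IFNA effect minus the pregnancy effect, that is (IFNA minus placebo) minus (pregnant minus cyclic), computed per probe set on log2 levels and repeated with PBS in place of placebo. A positive value means that IFNA raised a transcript more, or lowered it less, than pregnancy did.

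All animals were Bavarian Simmental heifers synchronised with cloprostenol, and each gave 1 Affymetrix bovine genome array. In the biopsy experiment a lipid rod releasing human IFNA was placed through the cervix into the horn on the side of the corpus luteum on day 14 of the cycle. Placebo heifers received the lipid rod without interferon and PBS heifers received only PBS. On day 16 the uterus was flushed and about 6 forceps biopsies per animal were taken from the caudal part of that horn. The pregnant heifers were inseminated with semen of 1 bull and the cyclic heifers received sperm-free supernatant, and both were slaughtered on day 15, when conceptuses were removed. Biopsy against slaughter, flushing, day 16 against day 15, the part of the horn and the kind of interferon all differ between the experiments and cannot be told apart in the difference between effects. Each p-value rests on the spread between animals within groups. That spread was taken over all 33 arrays for the difference between effects and over the 9 biopsy arrays for IFNA. For pregnancy it was taken over the slaughter arrays, with days 12 and 18 included.

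Before implantation the bovine trophoblast secretes interferon tau, a type I interferon that signals to the mother that a conceptus is present and prevents regression of the corpus luteum. Interferon tau and interferon alpha bind the same receptor, made of IFNAR1 and IFNAR2, which signals through JAK kinases and STAT proteins. STAT2 and IRF9 are parts of the factor that switches on interferon-stimulated genes, among them antiviral effectors (MX1, MX2, RSAD2), the ubiquitin-like modifier ISG15 and its conjugation enzymes, and antigen presentation genes. A conceptus also releases prostaglandins, proteases and other proteins that interferon alone does not supply.

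The arrays of both experiments carried the expected tissue. The epithelial adhesion gene EPCAM lay between 12.11 and 12.90 log2 and the stromal proteoglycan gene DCN between 13.31 and 13.68 over the 15 arrays, each at or above the 99.3 percentile of its array. The keratin gene KRT8 was low on its probe set, at 4.21 to 5.08. The 2 experiments differed in RNA control signals. The log2 level of GAPDH at its 3′ end minus that at its 5′ end was 1.03 to 3.87 in the 9 biopsy arrays, against -0.16 to -0.04 in the 6 day 15 arrays. For EF1A the same quantity was -0.38 in the biopsies and -2.08 on day 15 on average, whereas for actin it was 1.00 and 2.44, the other way round. Replicates also spread more in the biopsies, with a median SD of 0.16 (IFNA), 0.20 (placebo) and 0.13 (PBS) against 0.12 in both day 15 groups.

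IFNA and pregnancy raised a large common set of transcripts, and most of the IFNA rises were also pregnancy rises. With a limma fit and a Benjamini-Hochberg adjusted p below 0.05, 201 of 24016 probe sets were higher with IFNA than with placebo (0.837%) and 7 were lower (0.0291%). Against PBS, 171 were higher (0.712%) and 36 lower (0.15%). In pregnancy 661 were higher (2.75%) and 557 lower (2.32%). The biopsy and the day 15 comparisons share no array, and 157 probe sets (0.654%), for 83 named genes, were higher in both. They made up 78.1% of the IFNA rises and 23.8% of the pregnancy rises, and 44 IFNA rises were not called in pregnancy. With PBS as control, 141 probe sets were shared, 82.5% of the IFNA rises. Falls with IFNA were few. Of the 7 against placebo 3 were also lower in pregnancy, 2 of them for the potassium channel KCNMA1, and of the 36 against PBS 8 were. No probe set was called higher in the one and lower in the other. The counts changed by over 1.5 times without IFNA heifer 2 (136 IFNA calls against placebo and 117 against PBS in place of 208 and 207), without PBS heifers 1, 2 or 3 (110, 110 and 124 calls against PBS), and without cyclic heifers 2 or 3 or pregnant heifers 1 or 3 (611, 797, 601 and 694 pregnancy calls in place of 1218). The shared rises numbered 111 to 174 when 1 animal was left out.

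The sizes of the shared rises were compared next. Across the 157 probe sets the median difference was 1.78 with IFNA and 1.41 in pregnancy, the median difference between effects was 0.10, and the 2 effects had a Pearson correlation of 0.88. Over all 24016 probe sets that correlation was 0.42 and the Spearman correlation 0.08. These correlations run across probe sets measured on the same arrays within an experiment and are descriptions with no p. For all 157 the IFNA arrays did not overlap with placebo and the pregnant arrays did not overlap with cyclic ones, which follows largely from the way they were chosen. For 156 the IFNA arrays did not overlap with PBS either. The share of all probe sets without overlap was not counted. For 95 of the 157 the 95% interval of the difference between effects lay within -1 to 1 log2, which is a difference of less than 2-fold in either direction; over all probe sets, most of which did not move, 20743 of 24016 did. Of the 157, 5 were called in the difference with placebo, all positive, and 38 had an unadjusted p below 0.05 (32 positive and 6 negative), against 12.9% of all probe sets. For the others the interval was too wide, or too far from 0, to place the difference within those bounds. The 157 were chosen because both effects passed. Over all probe sets the IFNA effect was the less precise, with a median SE of 0.147 against 0.117 in pregnancy. The medians, the correlation and the signs given for the 157 therefore follow in part from the choice.

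**Figure D1:**
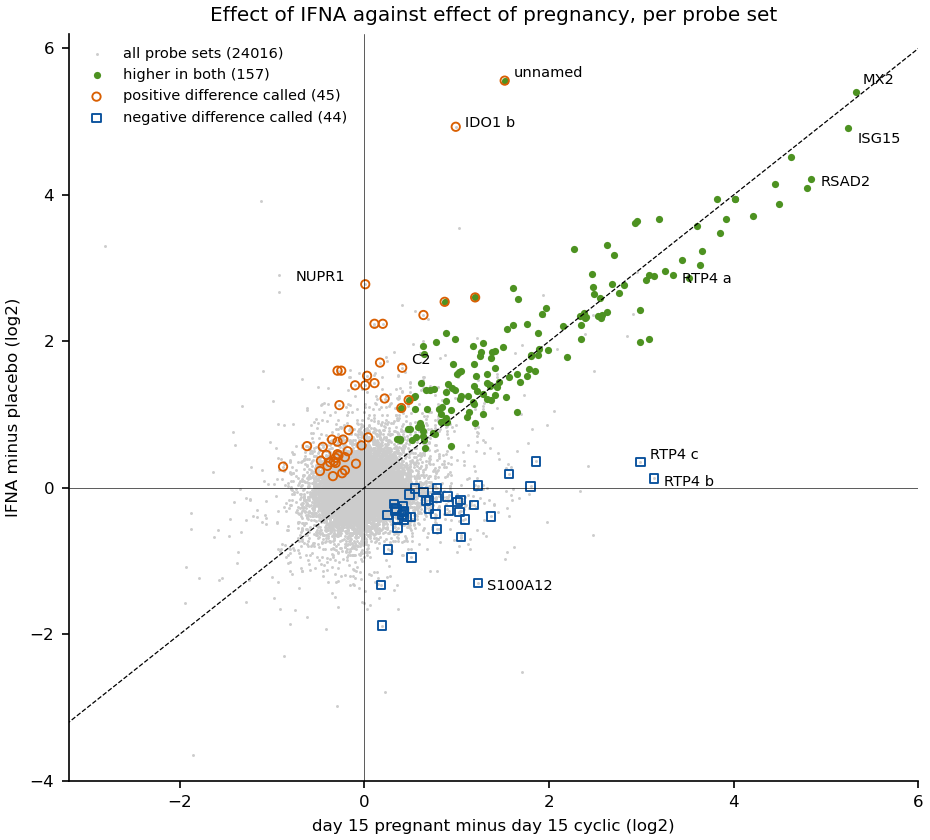
Each point is 1 probe set, with the difference between day 15 pregnant and cyclic heifers on the x axis and between IFNA and placebo on the y axis (both log2), and the dashed line marks equal effects. The 157 probe sets higher in both comparisons (green) follow the line up to MX2, the 45 called positive differences lie above it, and the 44 called negative differences lie below it.

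By the smaller of the 2 effects, MX2, ISG15 and RSAD2 were the largest shared rises among genes with a full symbol. MX2, a dynamin-like antiviral GTPase, stood at 10.69, 11.31 and 11.26 with IFNA, at 5.80, 5.34 and 5.89 with placebo and at 5.20, 5.46 and 5.99 with PBS. On day 15 it stood at 10.92, 10.65 and 10.48 in pregnant and at 6.05, 5.05 and 4.99 in cyclic heifers. Treated and pregnant heifers covered overlapping levels, as did all controls, with a wide gap between. MX2 was 5.41 ± 0.25 (SE) higher with IFNA than placebo and 5.32 ± 0.31 higher in pregnancy, and the difference between these effects was 0.09, with a 95% interval of -0.80 to 0.98.

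ISG15, the interferon-induced modifier, stood at 12.68, 12.79 and 12.90 with IFNA, against 8.17, 7.76 and 7.70 with placebo. In pregnant heifers it reached 13.43, 13.21 and 13.23, against 9.06, 7.33 and 7.76 in cyclic heifers. Neither pair of groups overlapped, and every pregnant heifer was above every IFNA heifer in level. Array medians differed between the experiments, and which arrays were normalised together is not given, so such levels are only described. The effects were 4.91 ± 0.23 and 5.24 ± 0.38, and their difference was -0.33 (95% interval -1.36 to 0.70). The deconjugase USP18, which removes ISG15 and dampens the receptor, rose by 3.58 with IFNA and 3.60 in pregnancy, with the narrower interval of -0.60 to 0.54. UBA7, the activating enzyme of ISG15, rose by 2.96 and 3.26. RSAD2 rose by 4.22 and 4.84, MX1 by 3.04 and 3.64 and IFI6 by 2.92 and 2.46.

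The interferon response list as a whole followed these genes. Of 70 listed genes 46 had a probe set with a single symbol, and IFIT1, IFIT3 and OAS1Y were among those without one. With IFNA 32 of the 46 were higher than placebo and 33 higher than PBS, in pregnancy 39 were higher, and none was lower. Their median differences were 2.28, 2.14 and 2.10, against -0.02, -0.01 and -0.01 over all probe sets. In the difference between effects limma called 0 of the 46 with placebo and 0 with PBS, with an unadjusted p below 0.05 for 7 and 8 of them, and the medians were -0.05 and -0.14. Called differences were rare over all probe sets too, at 0.187% positive and 0.183% negative with placebo and 0.025% and 0.0416% with PBS, so a count of 0 is little in itself. An unadjusted p below 0.05 was found for 12.9% of all probe sets with placebo and 10.9% with PBS. The intervals of 26 of the 46 lay within -1 to 1 log2, against 20743 of all 24016 probe sets, so that for the other genes of the list a 2-fold difference was not resolved. The lowest estimate was that of IFI27 (-1.05, interval -1.98 to -0.11), a mitochondrial interferon-induced protein, and the highest that of HERC6 (0.92, interval 0.37 to 1.47), a ligase for ISG15. Neither passed (adjusted p = 0.319 and 0.119).

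**Figure D2:**
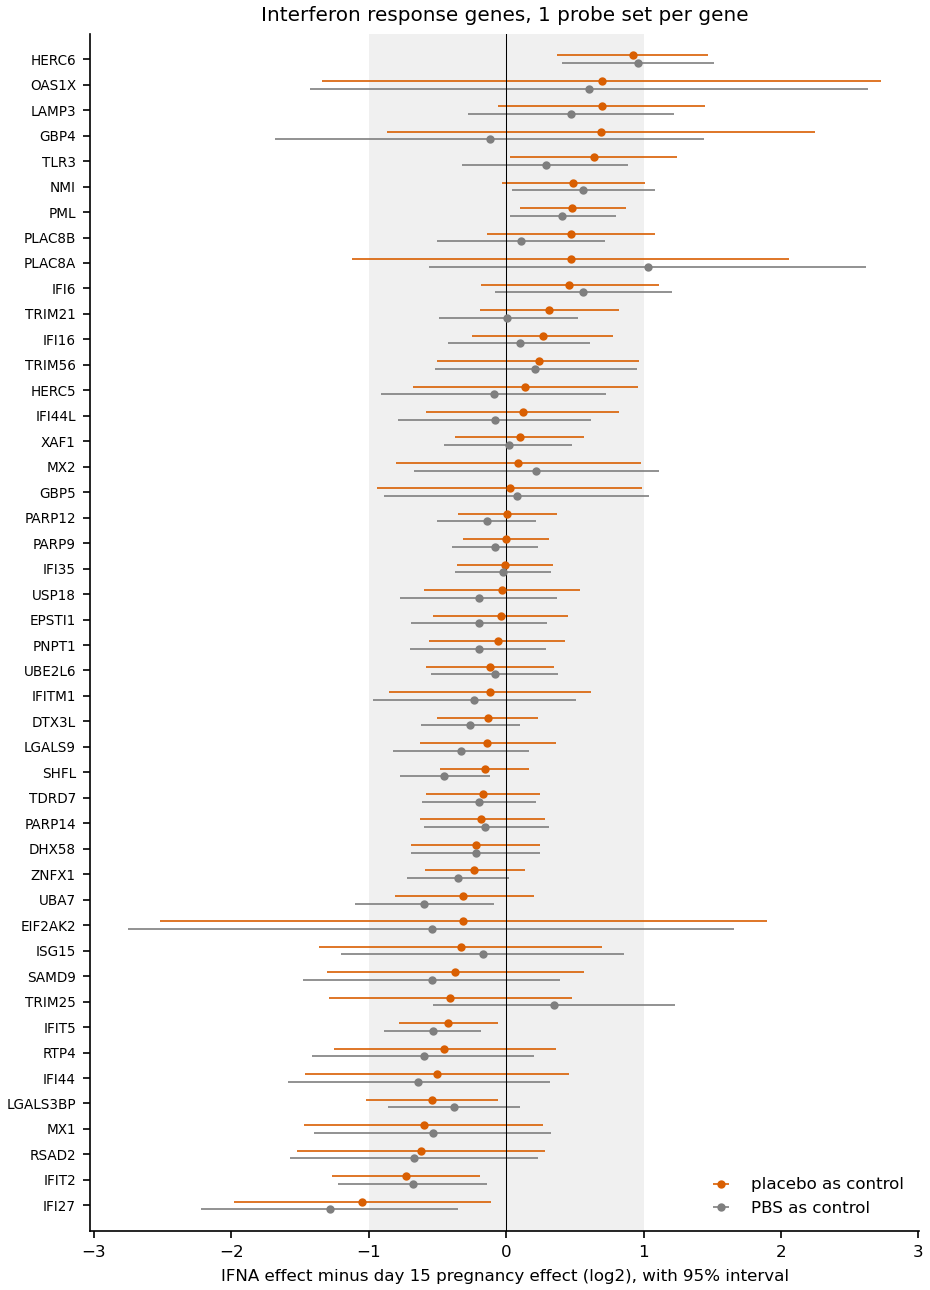
Points show the IFNA effect minus the day 15 pregnancy effect (x axis, log2) for the 46 measured interferon response genes, 1 probe set per gene, with placebo (orange) or PBS (grey) as control. Bars are unadjusted 95% intervals and the shaded band spans -1 to 1 log2; estimates run from -1.05 (IFI27) to 0.92 (HERC6) with placebo, and EIF2AK2, OAS1X and PLAC8A have the widest intervals.

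Among receptor and signalling genes, IRF9, STAT2, IRF7 and USP18 rose in all 3 comparisons, IRF8 rose only against placebo at the threshold used, and IRF3 only in pregnancy. The receptor chains did not pass in any comparison: IFNAR2 differed by 0.14 ± 0.12 with IFNA and 0.05 ± 0.10 in pregnancy, and IFNAR1, whose probe set was dim, by -0.15 ± 0.36 and -0.06 ± 0.14. IRF9, the DNA-binding partner of the STATs, stood at 10.54, 10.58 and 10.58 with IFNA and 8.58, 7.97 and 8.19 with placebo, and at 10.61, 10.42 and 10.42 in pregnant and 8.33, 7.61 and 7.82 in cyclic heifers. Both groups were clear of their controls. IRF9 rose by 2.32 ± 0.19 and 2.56 ± 0.17, and STAT2 by 1.43 ± 0.14 and 1.33 ± 0.11 (difference 0.10, interval -0.24 to 0.45). Of the 16 measured members, 5 were higher with IFNA than placebo, 4 than PBS and 5 in pregnancy, where 1 was lower. The single call in the difference between effects with placebo was PTPN6, a phosphatase that restrains JAK-STAT signalling. It was lower in pregnancy by 0.31 ± 0.09, was 0.41 ± 0.15 higher with IFNA without passing, and differed by 0.72 (adjusted p = 0.0301, limma). With PBS the difference of 0.56 did not pass (adjusted p = 0.195), and the call with placebo ended in 7 of 12 fits that left out 1 animal.

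Antigen presentation by MHC class I rose in part in both. The peptide transporter TAP1 rose by 1.53 ± 0.17 with IFNA and 1.21 ± 0.17 in pregnancy. The light chain B2M differed by 0.48 ± 0.09 and 0.22 ± 0.09 and passed in neither. Of 16 measured genes of this list, 1 was higher with IFNA than placebo, 2 than PBS and 6 in pregnancy. Beside TAP1, the immunoproteasome subunit PSMB9 rose against PBS (1.21) and in pregnancy (0.80), and PSMB8, PSMB10, PSME1 and PSME2 rose in pregnancy by 0.55 to 0.79. No member was called in the difference between effects with either control by limma (0 and 1 at an unadjusted p below 0.05), and 13 of the 16 intervals with placebo lay within -1 to 1 log2.

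Among chemokines, those induced by interferon did not all move together. CCL8, a monocyte attractant, rose by 2.03 ± 0.34 with IFNA and 2.35 ± 0.21 in pregnancy. CXCL10, which attracts T and NK cells, stood at 10.27, 11.71 and 11.41 with IFNA, at 9.54, 7.61 and 7.39 with placebo, at 9.94, 9.70 and 9.40 in pregnant and at 7.14, 6.43 and 6.61 in cyclic heifers. The groups did not overlap, but the highest placebo heifer was close below the lowest IFNA heifer. The estimates were 2.95 in each experiment, with SE 0.62 and 0.33, and the IFNA estimate did not pass (adjusted p = 0.0866). Its relative CXCL11 was 2.49 higher with IFNA and 0.41 higher in pregnancy, and the difference of 2.08 did not pass (2.16 with PBS). Limma called 0 of 36 measured chemokines and cytokines in the difference between effects with either control, and 5 and 4 had an unadjusted p below 0.05, near the 12.9% and 10.9% of all probe sets.

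The difference between effects was called for 89 probe sets with placebo as control, 45 positive and 44 negative, and for 16 with PBS, 6 positive and 10 negative. Most of the 44 negative ones, 36, were called higher in pregnancy and not called with IFNA. Of the others 1 was lower with IFNA and 7 were called in neither. The IFNA estimate was at or below 0 for 37 of the 44, with a median of -0.3 over all 44. Of the 45 positive ones, 5 were higher in both comparisons, 9 higher with IFNA alone, 10 lower in pregnancy alone, and 21 were called in neither. These counts rest on little. A fit on the 15 arrays alone, which leaves the other slaughter arrays out of the estimate of spread, called 3 with placebo and 2 with PBS, and weighting arrays by experiment and day left 18 and 12. Leaving out 1 animal gave 17 calls without IFNA heifer 2 and 414 without placebo heifer 2, the heifer with the largest 3′ excess of GAPDH (3.87). Outside the range of 1.5-fold were also the counts without IFNA heifer 1 (193) or 3 (144), placebo heifer 3 (150), cyclic heifers 1 (53), 2 (26) or 3 (40), and pregnant heifers 1 (33) or 3 (34). All 89 estimates kept their sign with quantile normalisation and with the GAPDH covariate. The fit on 15 arrays, the array weights and the replicate block change the spread and not the estimate, so the sign could not turn there. The mean over probe sets reversed BOLA-DRB3 (-0.54). With every animal left out in turn 15 of the 89 remained called, as did 8 of the 16 with PBS. With PBS the count was 54 without IFNA heifer 1, 10 without IFNA heifer 2, 29 without IFNA heifer 3, 10 without PBS heifer 2 and 26 without PBS heifer 3.

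In the tryptophan breakdown list 1 of 5 measured genes, IDO1, was called in the difference with placebo and 0 with PBS by limma (2 and 1 at an unadjusted p below 0.05), with medians of 0.08 and 0.01. IDO1 encodes the interferon-inducible enzyme that starts the kynurenine pathway. On the probe set with the higher mean over all arrays (a in the plot of probe sets by animal) it stood at 6.61, 7.71 and 6.49 with IFNA, 4.56, 4.44 and 4.74 with placebo, 4.74, 4.47 and 4.64 with PBS, 5.31, 5.81 and 5.24 in pregnant and 4.86, 4.81 and 4.77 in cyclic heifers. On the other probe set, b, the IFNA heifers reached 8.58, 9.87 and 9.05, against 4.40, 4.42 and 3.88 with placebo, 4.84, 5.23 and 3.90 in pregnant and 3.91, 3.49 and 3.60 in cyclic heifers.

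Both IDO1 probe sets separated IFNA from every other group. On probe set b the IFNA effect was 4.93 ± 0.34 and the pregnancy estimate 0.99 ± 0.32 did not pass (adjusted p = 0.0792). The difference was 3.94 (95% interval 2.95 to 4.93, adjusted p = 6.05e-05) with placebo and 3.68 with PBS (adjusted p = 0.000227). It was called without any 1 animal and, with placebo, in the fit on 15 arrays (adjusted p = 0.0243; with PBS 0.0508). On probe set a it was 1.72 (adjusted p = 0.0242) and 1.68 (adjusted p = 0.0715), and the call with placebo ended in 6 of 12 fits that left out 1 animal. The tryptophanyl-tRNA synthetase WARS1, induced by interferons alongside IDO1, rose in both on its brightest probe set, by 1.39 and 1.19. Of 3 WARS1 probe sets called higher in pregnancy, 1 was called higher with IFNA against placebo and 0 were called in the negative difference.

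A probe set with no gene name had the largest called difference with placebo, 4.04 (interval 2.95 to 5.12), and 3.58 with PBS. It stood at 8.49, 10.08 and 9.48 with IFNA and at 4.37, 4.03 and 2.97 with placebo, against 5.72, 4.84 and 4.16 in pregnant and 3.89, 2.89 and 3.37 in cyclic heifers. It rose in both experiments, by 5.56 ± 0.43 and 1.52 ± 0.32. It remained called without any 1 animal, but not in the fit on 15 arrays (adjusted p = 0.108).

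NUPR1, a stress-induced nuclear protein, rose with IFNA and not in pregnancy. It stood at 11.66, 12.57 and 12.74 with IFNA, 9.76, 8.87 and 10.00 with placebo and 8.80, 9.49 and 9.36 with PBS. In pregnant heifers it stood at 10.28, 11.47 and 10.50 and in cyclic heifers at 10.30, 10.38 and 11.54. The IFNA heifers were above all others, while pregnant and cyclic heifers overlapped. The effects were 2.78 ± 0.36 and 0.01 ± 0.30, and the difference was 2.77 (adjusted p = 0.00733) with placebo and 3.10 (adjusted p = 0.00216) with PBS, called without any 1 animal. Other genes of the amino acid stress list did not follow NUPR1: 2 of 17 were higher with IFNA (the other is WARS1), and TRIB3, DDIT3 and ATF4 differed from placebo by -0.11, 0.65 and 0.29 without passing.

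Among complement genes C2 differed most clearly. C2, a protease of the classical pathway, stood at 8.71, 8.95 and 8.20 with IFNA, 7.04, 6.93 and 6.96 with placebo, 6.94, 6.87 and 7.01 with PBS, 6.17, 6.03 and 6.00 in pregnant and 5.84, 5.36 and 5.77 in cyclic heifers. IFNA heifers were clear of both controls, and the pregnant heifers were just above the cyclic ones. C2 rose by 1.64 ± 0.17 with IFNA, the pregnancy estimate of 0.41 ± 0.14 did not pass, and the difference was 1.23 with placebo (adjusted p = 0.00733) and 1.27 with PBS (adjusted p = 0.00576). A dimmer C2 probe set gave 0.14 and passed in no comparison. SERPING1, the inhibitor of C1, rose in both on its brighter probe set (1.20 ± 0.12 and 0.48 ± 0.11), and the difference of 0.72 passed with placebo (adjusted p = 0.0283) but not with PBS (0.36, adjusted p = 0.392). The call with placebo ended in 6 of 12 fits that left out 1 animal. Of the 2 SERPING1 probe sets, both called higher in pregnancy, 1 was called higher with IFNA against placebo.

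C4A, the substrate of the C1 complex, rose by 2.24 ± 0.27 and 1.76 ± 0.30, with a difference of 0.49 that did not pass (interval -0.39 to 1.37). Of the 22 measured complement genes, 7 were higher with IFNA than placebo, 6 than PBS and 4 in pregnancy, where CD46 was lower. The medians were 0.76, 0.58 and 0.23, against -0.02, -0.01 and -0.01 over all probe sets. The subunits C1QA, C1QB and C1QC, made mainly by macrophages, differed by 1.54, 1.84 and 1.58 with IFNA and by 0.36, 0.60 and 0.44 in pregnancy. C1QB and C1QC passed with IFNA, C1QA did not, none passed in pregnancy, and none was called in the difference between effects.

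The list of macrophage and dendritic cell markers itself holds C1QA, C1QB and C1QC, so its counts, medians and summed level are not separate from the values above. Of 14 measured markers 4 were higher with IFNA than placebo (C1QB, C1QC, the Fc receptor FCGR1A and the growth factor receptor CSF1R), 3 were higher and 1 lower than with PBS, and 1 (AIF1) was higher in pregnancy. Their medians were 1.14, 0.77 and 0.28. The log2 of their summed level lay at 12.15 to 12.64 with IFNA, 10.83 to 11.52 with placebo, 11.31 to 11.63 with PBS, 11.36 to 11.48 in pregnant and 10.81 to 11.35 in cyclic heifers, so that IFNA heifers did not overlap with either control. In the difference between effects limma called 0 of the 14 with either control, of which 9 and 7 had an unadjusted p below 0.05 (12.9% and 10.9% of all probe sets did), and the medians were 0.86 and 0.50. CD14, CD68, CD83, ITGAM and CD5L differed from placebo by -0.10 to 0.31. The lowest value in the file was 1.89, so that no marker was listed at 0. In bulk tissue more cells of a type and more RNA per cell cannot be told apart, and the part of these cells in the C2 difference was not tested.

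In the MHC class II list 1 of 11 measured genes, BOLA-DMB, rose in each of the 3 comparisons (1.25, 1.02 and 0.55). BOLA-DRB3, the beta chain of the DR molecule, stood at 11.14, 11.21 and 10.99 with IFNA, 10.53, 10.32 and 10.12 with placebo, 10.45, 10.61 and 11.00 with PBS, 10.15, 10.42 and 10.30 in pregnant and 10.53, 10.54 and 10.30 in cyclic heifers. IFNA was clear of placebo but met the highest PBS heifer, and pregnant and cyclic heifers overlapped. Neither effect passed (0.79 ± 0.16 and -0.17 ± 0.15). The difference between effects was 0.96 with placebo (adjusted p = 0.0459) and 0.59 with PBS (adjusted p = 0.31). The call with placebo ended in 9 of 12 fits that left out 1 animal. A dimmer BOLA-DRB3 probe set scattered from 3.74 to 9.28 over the biopsy arrays and gave -2.03 with an interval of -5.34 to 1.28. The gene is highly variable between animals, and allele differences at the probes were not tested. Over the 11 measured class II genes the median difference between effects was 0.69 with placebo and 0.24 with PBS, with 1 and 0 called by limma (5 and 3 at an unadjusted p below 0.05).

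**Figure D3:**
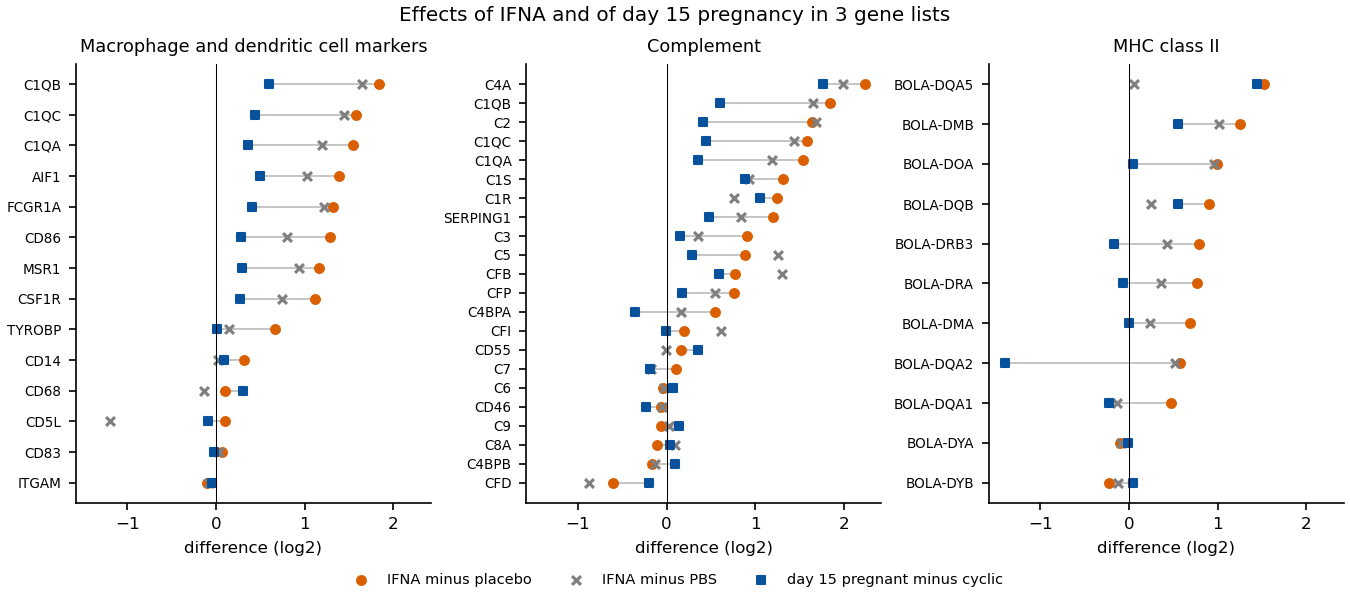
Each row is 1 gene and the x axis is a log2 difference: IFNA minus placebo (circles), IFNA minus PBS (crosses) and day 15 pregnant minus cyclic (squares), with a grey line from circle to square. In the macrophage and dendritic cell list the medians are 1.14, 0.77 and 0.28, in complement 0.76, 0.58 and 0.23, and in MHC class II 0.77, 0.25 and 0.00.

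Of 8 measured B and plasma cell markers 1, IGHM, was called in the difference with placebo and 0 with PBS by limma (1 and 1 at an unadjusted p below 0.05), and the medians were 0.00 and 0.01. IGHM, the heavy chain of immunoglobulin M, stood at 8.92, 8.46 and 8.72 with IFNA, 7.80, 6.87 and 6.63 with placebo, 7.55, 7.52 and 7.07 with PBS, 7.08, 7.11 and 7.05 in pregnant and 7.70, 7.27 and 7.15 in cyclic heifers. Every IFNA heifer was above every other heifer, and every pregnant heifer below every cyclic one. IGHM rose by 1.60 ± 0.29 with IFNA against placebo (1.32 against PBS, not past the threshold), and the difference between effects was 1.89 with placebo (adjusted p = 0.0176) and 1.61 with PBS (adjusted p = 0.116). The summed B and plasma cell markers, which include IGHM, lay at 10.26 to 10.43 with IFNA, 9.20 to 9.75 with placebo and 9.34 to 10.10 with PBS, while MS4A1 and CD79A differed by 0.21 and -0.09. FCGR3A, an Fc receptor of NK cells, neutrophils and monocytes, differed by 1.53 ± 0.29 with IFNA and 0.03 ± 0.15 in pregnancy without passing in either, and the difference of 1.49 passed with placebo (adjusted p = 0.0181) and not with PBS (1.13, adjusted p = 0.174).

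S100A12, a calcium-binding alarmin of neutrophils and epithelium, went opposite ways. It stood at 7.38, 7.65 and 7.83 with IFNA, 9.70, 8.84 and 8.23 with placebo and 9.24, 9.50 and 9.25 with PBS. On day 15 it stood at 8.20, 7.86 and 7.72 in pregnant and 7.27, 6.21 and 6.62 in cyclic heifers. IFNA heifers were below both controls and pregnant heifers above cyclic ones, with no overlap in either experiment. Only the pregnancy rise of 1.23 ± 0.33 passed, and the IFNA estimate of -1.30 ± 0.32 did not (adjusted p = 0.161; -1.71 and 0.0525 against PBS). The difference was -2.53 (adjusted p = 0.0174) with placebo and -2.94 (adjusted p = 0.00535) with PBS. The call with placebo (adjusted p = 0.0502 to 0.0595 where lost) ended without IFNA heifer 2, cyclic heifer 2 or pregnant heifer 1, and all 12 such calls with PBS remained.

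S100A8, its relative, differed by -2.54 with PBS (adjusted p = 0.0228) and by -1.32 with placebo (adjusted p = 0.223). The placebo heifers ranged from 7.02 to 9.04 and the PBS heifers from 9.18 to 9.63. Summed neutrophil markers, which include both genes, lay at 10.48 to 11.57 with IFNA, 10.80 to 11.70 with placebo, 11.24 to 11.54 with PBS, and 8.80 to 9.38 in all 6 day 15 heifers. Their part in the 2 results was not tested.

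The 2 largest called negative differences with placebo came from probe sets of RTP4 that saw a pregnancy rise and no IFNA rise although another probe set of the gene saw both; with PBS S100A12 came before them. RTP4, an interferon-induced transmembrane protein, has 3 probe sets. On probe set a, the brightest, it stood at 8.47, 8.65 and 8.43 with IFNA, 6.12, 5.17 and 5.57 with placebo, 10.45, 10.29 and 9.95 in pregnant and 7.22, 6.62 and 6.82 in cyclic heifers. On probe set b it stood at 4.84, 4.77 and 4.59 with IFNA, 4.44, 4.57 and 4.81 with placebo, 9.35, 9.18 and 8.94 in pregnant and 6.34, 5.73 and 5.97 in cyclic heifers. The first separated both pairs of groups and the second only the day 15 pair.

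In pregnancy the 3 RTP4 probe sets agreed, with rises of 3.34, 3.14 and 2.99. With IFNA they gave 2.90 ± 0.26, 0.13 ± 0.13 and, on probe set c, 0.35 ± 0.20, of which the first passed. The differences between effects were -0.45 (interval -1.25 to 0.36), -3.02 (-3.61 to -2.42) and -2.64 (-3.19 to -2.09). The last 2 passed at adjusted p = 1.33e-06 and 1.77e-06 and, with IDO1 probe set b, were the 3 that passed in the fit on 15 arrays (9.5e-05 and 0.00359). On these 2 probe sets all 9 biopsy arrays were dim, at 4.33 to 5.85, with mean percentiles of 23.6 to 32.8 in the IFNA and placebo groups, against 43.1 to 50.7 in cyclic and 87.7 to 91.0 in pregnant heifers.

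PARP12, an interferon-induced ADP-ribosyltransferase, divided in the same way. Probe sets a and b rose by 1.90 and 2.34 with IFNA and 1.89 and 2.34 in pregnancy. Probe set c stood at 2.88 to 3.11 with IFNA, 2.75 to 3.40 with placebo, 5.65 to 6.40 in pregnant and 4.14 to 4.40 in cyclic heifers, with a difference between effects of -1.77 with either control (adjusted p = 0.00648 with placebo and 0.00576 with PBS). Probe set d gave -1.50 (adjusted p = 0.023) with placebo and -1.22 (adjusted p = 0.16) with PBS. IRF7, the master regulator of interferon production, rose by 2.21 and 2.15 on probe set a, while probe set b gave 0.19 ± 0.15 and 1.57 ± 0.18 and a difference of -1.38 (adjusted p = 0.0108; -1.22 and 0.0475 with PBS). Probe set c passed in neither, at -0.05 and 0.17.

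**Figure D4:**
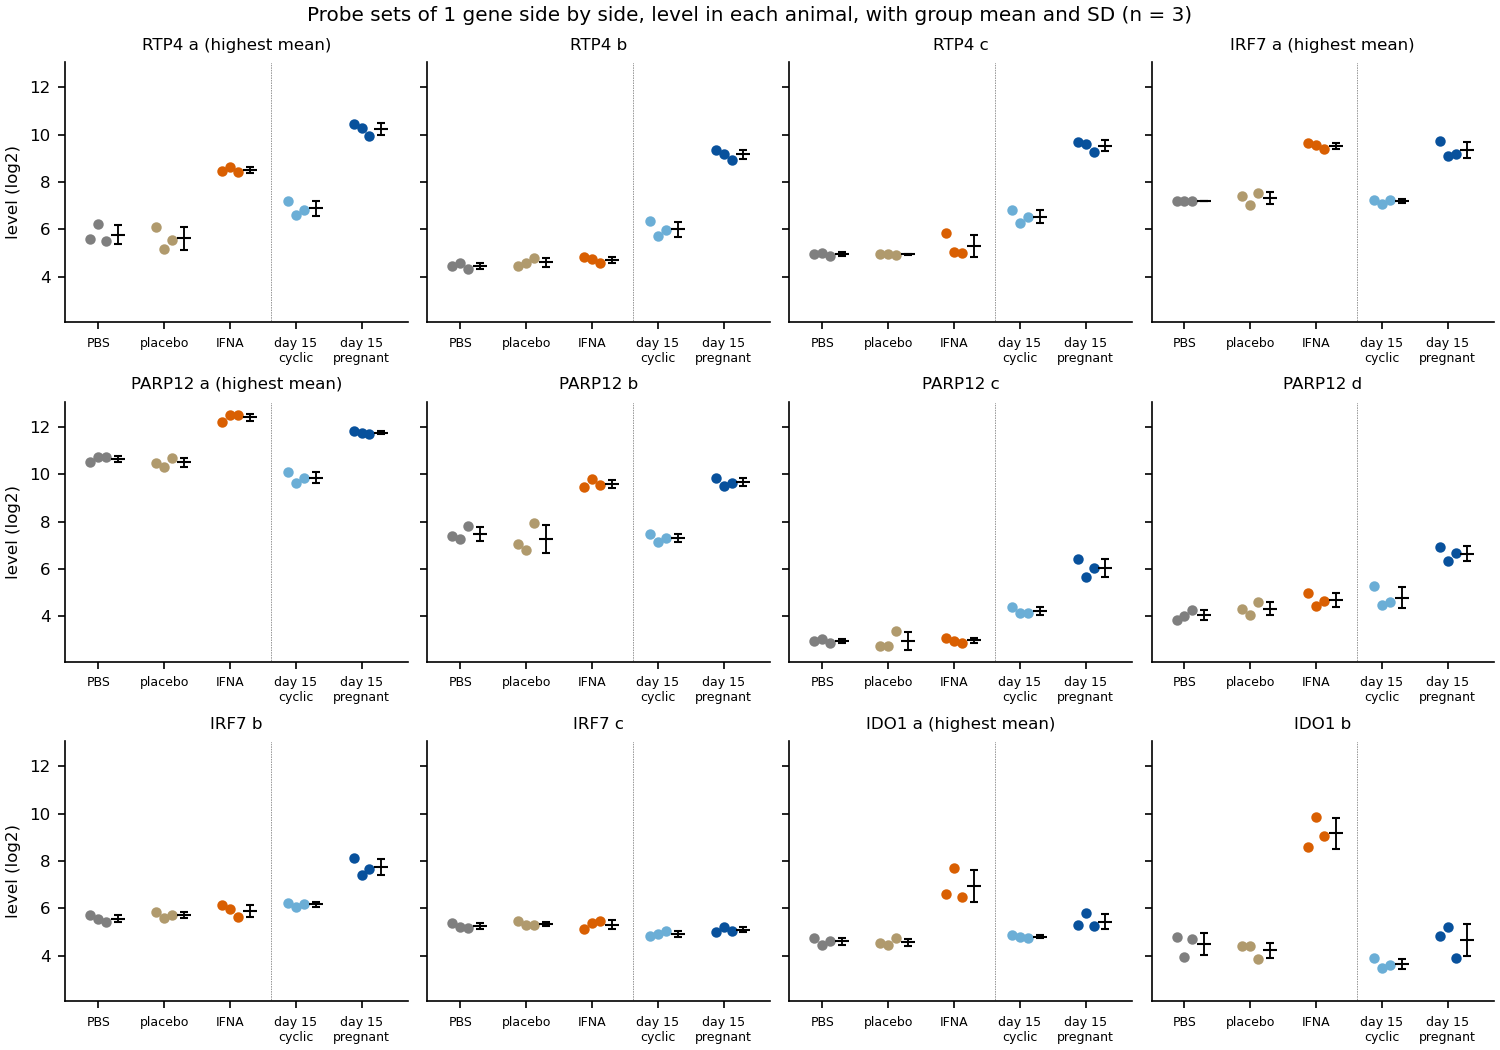
Each panel is 1 probe set, each dot 1 heifer, and the bar the group mean and SD (n = 3), on 1 shared log2 axis. A dotted line lies between the experiments, whose array medians differed. RTP4 b and c, PARP12 c and d and IRF7 b rise in pregnant heifers and stay low in all 9 biopsies, while IDO1 rises with IFNA on both probe sets.

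Over all 70 probe sets of the interferon list, 41 were higher with IFNA than placebo and 59 in pregnancy, and the 4 called in the difference with placebo were these RTP4 and PARP12 probe sets. Counting probe sets of 1 gene together, 22 genes had 2 or more probe sets higher in pregnancy and at least 1 of them higher with IFNA. In 5 of the 22 all of them passed with IFNA (IFI44 and USP18 with 4 each), and in 17 some did not. Over all probe sets 504 of the 661 pregnancy rises were not called with IFNA against placebo, so such a miss is common. In only 3 of the 22 genes, RTP4, PARP12 and IRF7, were some called in the negative difference. Beside this stand the 3′ to 5′ differences given above, larger in the biopsies for GAPDH and EF1A and smaller for actin. The position of the probes along the transcripts was not used here, and the part of RNA quality was not tested. With the GAPDH difference as a covariate, all 89 calls remained, but that term acts on spread within groups and cannot separate the experiments.

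Pregnancy rises not called with IFNA were the most frequent kind of called negative difference. Across the 504 probe sets called higher in pregnancy and not with IFNA against placebo, the median pregnancy effect was 0.59, the median IFNA difference 0.08 and the median difference between effects -0.43, and 36 were called. For 298 the interval lay within -1 to 1 log2, so a smaller IFNA rise was not told from none. Since these probe sets were chosen by the pregnancy effect, the sign of the median follows in part from the choice.

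Beside S100A12 and the probe sets of RTP4, PARP12 and IRF7 described above, PDE6D and SLC66A3 were of this kind with calls under both controls. PDE6D, a carrier of prenylated proteins to membranes, stood at 8.88, 8.49 and 8.95 in pregnant and 7.77, 7.54 and 7.97 in cyclic heifers, against 7.62, 7.32 and 7.32 with IFNA and 7.65, 7.57 and 7.61 with placebo. Pregnant heifers were apart from cyclic ones and IFNA heifers overlapped with placebo. The effects were 1.01 ± 0.17 and -0.19 ± 0.13 and their difference -1.20 (adjusted p = 0.0176), or -1.19 (adjusted p = 0.0314) with PBS. SLC66A3, a member of the PQ-loop membrane proteins, rose by 1.04 ± 0.13 in pregnancy and differed by -0.17 ± 0.22 with IFNA, with differences of -1.21 (adjusted p = 0.0191) and -1.25 (adjusted p = 0.0242). With placebo the PDE6D call ended without IFNA heifer 2, cyclic heifer 2 or pregnant heifers 1 or 3, and the SLC66A3 call without IFNA heifer 2 or cyclic heifer 3. With PBS 7 and 8 of 12 such fits lost the calls, among them those without IFNA heifer 2 and PBS heifer 2.

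TBC1D7, a subunit of the TSC complex that restrains growth signalling, rose by 1.03 in pregnancy, KLHL13, a ubiquitin ligase adaptor of mitosis, by 0.79, the cell surface receptor BOC by 0.92 and the nuclear pore protein NUP93 by 1.09. Their differences from IFNA were -1.36, -1.35, -1.23 and -1.52 with placebo, and -1.31, -1.28, -0.94 and -1.21 with PBS, where none passed. The calls with placebo ended in 6, 5, 7 and 9 of 12 fits that left out 1 animal. The epithelial cadherin CDH1 rose by 0.64 ± 0.09 in pregnancy and gave -0.06 ± 0.12 with IFNA. Its difference of -0.70 passed with placebo (adjusted p = 0.0212) and not with PBS (-0.42, adjusted p = 0.291). Among the 13 measured epithelial markers CDH1 was the single call in the difference with placebo, and 0 were called with PBS. An unadjusted p below 0.05 (limma) was found for 5 and 6, against 12.9% and 10.9% of all probe sets. Estimates were above 0 for 9 against placebo, 13 against PBS and 7 in pregnancy, with medians of 0.10, 0.31 and 0.01. The summed level of the 13 lay at 13.91 to 14.09 with IFNA, 13.74 to 14.13 with placebo and 13.62 to 13.89 with PBS. On day 15 it lay at 13.70 to 13.84 in pregnant and 13.50 to 13.67 in cyclic heifers.

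Some differences depended on the placebo group. SLC25A5, the mitochondrial carrier that exchanges ADP for ATP, stood at 10.26, 10.14 and 10.64 with IFNA, 11.30, 10.70 and 11.04 with placebo and 10.00, 10.44 and 10.66 with PBS. In pregnant heifers it stood at 10.85, 10.89 and 11.01 and in cyclic heifers at 9.84, 9.83 and 9.93. IFNA was below placebo and overlapped with PBS, and pregnancy was above cyclic by 1.05 ± 0.18. The difference was -1.72 (adjusted p = 0.00648) with placebo and -1.07 (adjusted p = 0.189) with PBS. A dimmer SLC25A5 probe set gave 0.03 with IFNA, 0.04 in pregnancy and a difference of 0.00 (interval -0.51 to 0.50).

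NTS, which encodes the peptide neurotensin, stood at 7.87, 6.54 and 7.07 with IFNA, 8.44, 9.17 and 9.51 with placebo and 8.17, 8.27 and 7.89 with PBS, and at 3.31 to 3.78 in all 6 day 15 heifers. IFNA was below both controls, touching neither, and the gene was near the bottom of the day 15 arrays in both groups. Its difference was -2.07 (adjusted p = 0.0106) with placebo and -1.14 (adjusted p = 0.273) with PBS. DHRS7, a short-chain dehydrogenase, fell by 0.84 ± 0.14 with IFNA against placebo and differed by -0.32 ± 0.14 from PBS; its differences were -1.11 (adjusted p = 0.0191) and -0.58 (adjusted p = 0.311).

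On the positive side, HOXB3, a homeobox factor, and ALG13, a subunit of the enzyme that extends N-glycan precursors, fell in pregnancy by 0.62 ± 0.17 and 0.88 ± 0.14 and gave 0.57 ± 0.18 and 0.29 ± 0.16 with IFNA. Their differences were 1.19 and 1.17 with placebo (adjusted p = 0.0245 and 0.011), and 0.69 and 0.96 with PBS, which did not pass. RPRD1A, a phosphatase scaffold of RNA polymerase II, gave 1.01 (adjusted p = 0.0358) and 0.73 (adjusted p = 0.244). With placebo the HOXB3 call ended in 5, the ALG13 call in 0 and the RPRD1A call in 9 of 12 fits that left out 1 animal. The lysosomal protease CTSL, which is secreted into the uterine lumen, stood at 7.12, 7.56 and 5.78 with IFNA against 3.99, 5.20 and 4.55 with placebo and 3.56 to 4.05 in all day 15 heifers. Its difference of 2.13 was called with placebo (adjusted p = 0.0416) and not with PBS (2.09, adjusted p = 0.127), and the call ended without any 1 of 10 of the 12 animals.

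**Figure D5:**
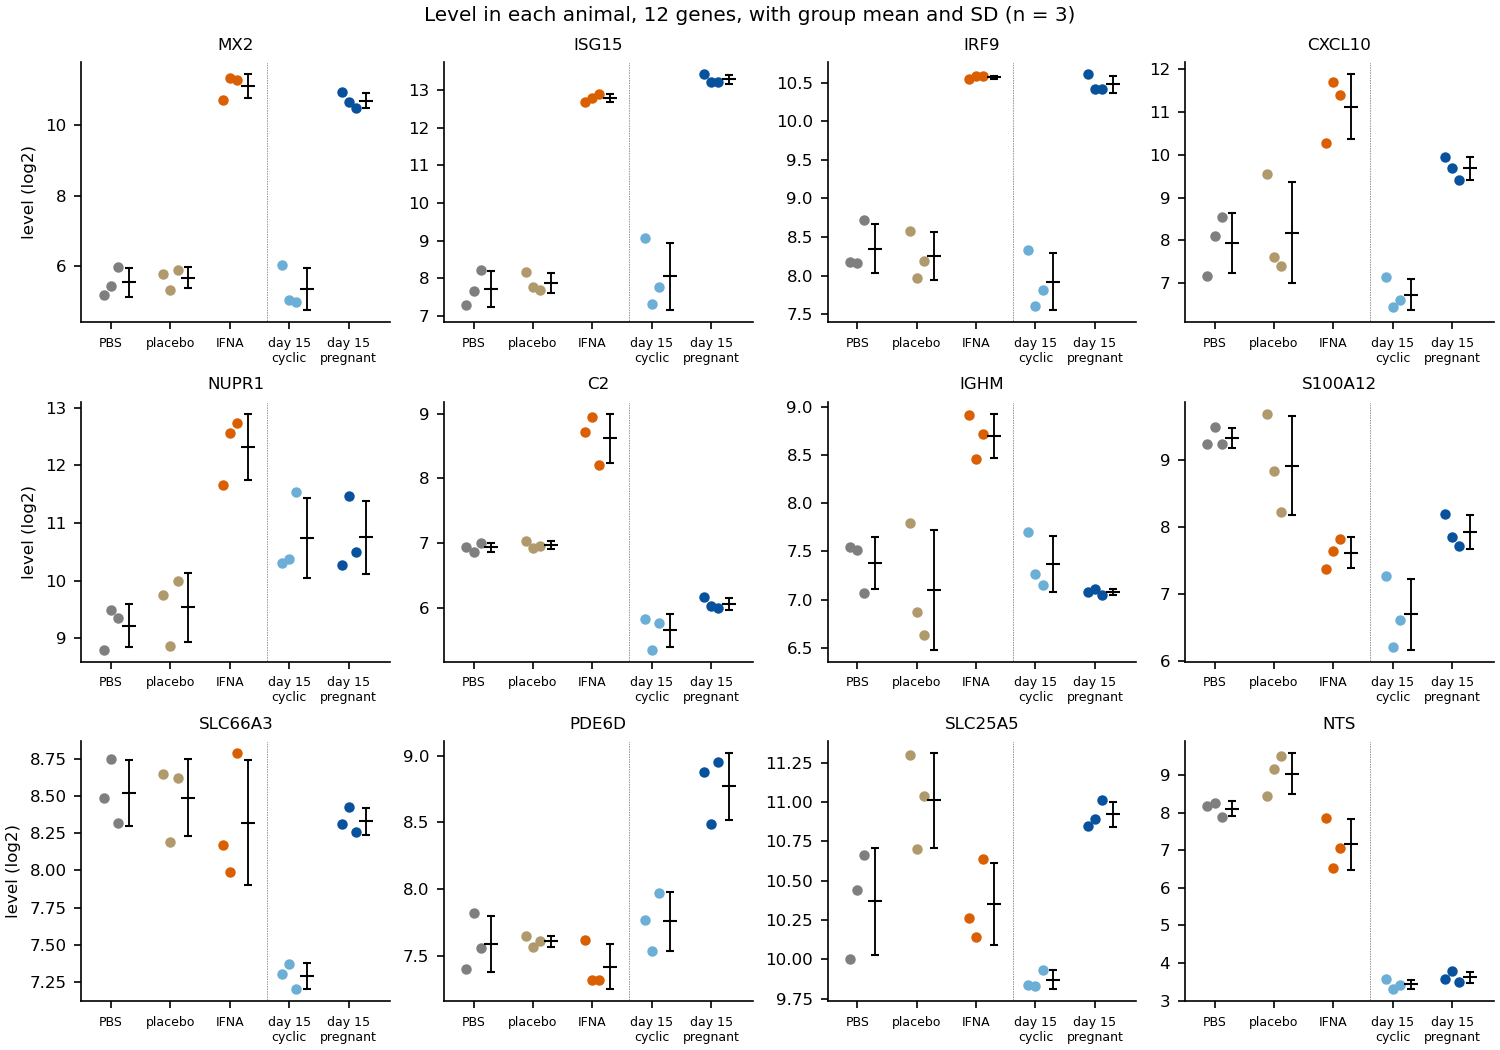
Each panel is 1 gene, each dot 1 heifer and the bar the group mean and SD (n = 3), on log2 axes that differ between panels. A dotted line lies between the experiments, whose array medians differed. MX2, ISG15, IRF9 and CXCL10 are high in IFNA and pregnant heifers; NUPR1, C2 and IGHM are high with IFNA; PDE6D and SLC66A3 are higher in pregnant than in cyclic heifers and not with IFNA, and SLC25A5 and NTS are higher in placebo than in PBS heifers on average.

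Genes of luteal rescue gave no call, which is little in itself since calls were rare over all probe sets. In the steroid, oxytocin and prostaglandin list limma called 0 of 22 in any single comparison or difference. An unadjusted p below 0.05 was found for 3 and 5 in the 2 differences, against 12.9% and 10.9% of all probe sets. In the single comparisons (IFNA against placebo, against PBS, and pregnancy) it was found for 1, 3 and 4, against 2035, 2244 and 4492 of all 24016. The oxytocin receptor OXTR gave 0.51 ± 0.41 with IFNA and -0.49 ± 0.24 in pregnancy (difference 1.00, interval 0.10 to 1.90, adjusted p = 0.325). The prostaglandin synthase PTGS2 gave -0.16 ± 0.38 and 0.87 ± 0.40 (difference -1.03, interval -2.22 to 0.17). The probe sets of the receptors ESR1 and PGR were dim on all 15 arrays, at 3.63 to 4.58 and 3.67 to 4.47. These intervals reach or pass 1 log2 for OXTR and PTGS2, so that differences of 2-fold were not resolved.

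PLET1, an epithelial progenitor surface protein, rose by 3.44 ± 0.40 in pregnancy and gave 0.53 ± 0.88 against placebo and 2.16 ± 0.88 against PBS, neither past the threshold. It ranged from 5.97 to 8.65 with IFNA, 6.05 to 7.89 with placebo, 4.02 to 6.95 with PBS, 6.51 to 8.48 in pregnant and 4.12 to 4.40 in cyclic heifers. All 3 biopsy groups overlapped, and the difference of -2.90 did not pass (adjusted p = 0.128; -1.27 with PBS). The uterine serpin SERPINA14, SPP1, UPK1B and LPL were as scattered, with SDs up to 1.71 within a biopsy group and no call in any comparison. Of 40 measured transport and histotroph genes, CTSL was the single call in the difference with placebo and 0 were called with PBS by limma (11 and 9 at an unadjusted p below 0.05, against 12.9% and 10.9% of all probe sets).

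No trophoblast marker was called higher in the pregnant samples. Of 13 measured, limma called 0 in pregnancy and 0 in either difference (1 in pregnancy, 1 and 0 in the differences at an unadjusted p below 0.05). Over all probe sets 2.75% were called higher in pregnancy, so a count of 0 of 13 is little in itself. The pregnancy estimate was above 0 for 9 of the 13, with a median of 0.07. Over all probe sets it was above 0 for 11299 of 24016, with a median of -0.01. The summed level of the 13 markers lay at 9.19 to 9.51 in pregnant and 9.53 to 9.60 in cyclic heifers, and the probe set of the interferon tau gene IFNT2 lay at 4.55 to 5.45 over all 15 arrays.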

How the data were processed

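The deposited log2 level of each probe set comes from RMA. The submitters' processing notes name affy as the software; its version and which arrays the authors normalised together are not given in the sources used here. Array medians fell into sets by experiment and day (biopsies 6.64, day 15 6.50), so effects were compared and levels only described. Of 24128 probe sets 112 controls were left out. Of the 24016 tested, 13292 carried 1 gene symbol, 86 several and 10638 none; where a gene had several, the brightest on average across the 33 arrays stood for it.

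Linear models were run in R 4.3.3 (limma 3.58.1) with moderated variances and Benjamini-Hochberg adjustment over all probe sets, called at adjusted p below 0.05. The difference between effects came from group means over all 33 arrays, IFNA contrasts from the 9 biopsy arrays and the pregnancy contrast from the slaughter arrays. No difference was taken from levels across experiments. The number of arrays limits precision: the median SE was 0.184 log2 for the difference between effects. In simulated data with placebo as control, 69 of 100 changes of 1 log2 and 98 of 100 of 2 log2 were recovered over 24016 probe sets. The simulation gave a probe set the same spread in every group. In the data the median SD was 0.16 with IFNA and 0.20 with placebo, against 0.12 in both day 15 groups. Recovery in the real arrays can therefore be lower.

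The genes named were the 10 largest positive and negative called differences with placebo and 5 each way with PBS, the 10 shared rises with the largest smaller effect, up to 4 called members of each list, and a fixed set. The fixed set held interferon and immune genes, and also NUPR1, OXTR, ESR1, PGR, SERPINA14, PTGS2, SPP1, PLET1, UPK1B, LPL and KCNMA1. Other genes, other probe sets of these genes and the unnamed probe set were named after their values were seen. The members and lists were chosen with earlier results of these data known. Alternatives were a fit on the compared groups alone, quantile normalisation of all arrays, array weights, a replicate block, a filter at the median level, the GAPDH difference as a covariate, the mean of both controls, the mean over probe sets and leaving out each animal.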

Additional observations from a re-analysis of the deposited data

Results flagged for a closer look

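The results given here are those in which the IFNA effect and the day 15 pregnancy effect differed by the test of the difference itself (limma, adjusted p below 0.05). Groups of 3 were not tested for single animals far from the others.

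With placebo as control the IFNA effect exceeded the pregnancy effect by 2.77 log2 for NUPR1, 2.13 for CTSL, 1.89 for IGHM, 1.72 for IDO1 and 3.94 on the other IDO1 probe set, 1.49 for FCGR3A, 1.23 for C2, 1.19 for HOXB3, 1.17 for ALG13, 1.01 for RPRD1A, 0.96 for BOLA-DRB3, and 0.72 for both PTPN6 and SERPING1. The difference was negative for S100A12 (-2.53), NTS (-2.07), SLC25A5 (-1.72), NUP93 (-1.52), TBC1D7 (-1.36), KLHL13 (-1.35), BOC (-1.23), SLC66A3 (-1.21), PDE6D (-1.20), DHRS7 (-1.11) and CDH1 (-0.70). It was also negative on probe sets of RTP4 (-3.02 and -2.64), PARP12 (-1.77 and -1.50) and IRF7 (-1.38), whose brightest probe sets showed no such call.

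With PBS as control the difference was 3.10 for NUPR1, 1.27 for C2 and 3.68 on IDO1 probe set b. It was -2.94 for S100A12, -2.54 for S100A8, -1.25 for SLC66A3, -1.19 for PDE6D, -2.86 and -2.64 on the RTP4 probe sets b and c, -1.77 on PARP12 c and -1.22 on IRF7 b.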

How the results depend on the processing

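The count of called differences between effects (89 with placebo, 16 with PBS) depended on the fit. The groups compared alone gave 3 and 2. With placebo, array weights gave 18, the GAPDH covariate 220 and the mean of both controls 47. With PBS, probe sets above the median level gave 1. Leaving out 1 animal gave 17 to 414 with placebo (17 without IFNA heifer 2, 414 without placebo heifer 2) and 10 to 54 with PBS (10 without IFNA heifer 2, 54 without IFNA heifer 1). Quantile normalisation kept 67 of the 89 and all 16.

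For the single effects, the groups compared alone gave 124 calls for IFNA against placebo, 465 for pregnancy and 98 shared rises, in place of 208, 1218 and 157, and the GAPDH covariate gave 338 for IFNA against placebo. Without 1 animal the counts were 136 to 257 for IFNA against placebo, 110 to 232 against PBS, 601 to 1122 for pregnancy and 111 to 174 shared rises. The mean over its probe sets turned BOLA-DRB3 to -0.54 (SE 0.814, adjusted p = 0.825, limma). The causes were not tested.

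The replicate block gave 20 calls with placebo, 19 of them among the 89, and 132 for IFNA against PBS in place of 207. The replicate numbers did not pair the animals: same-numbered samples correlated between -0.34 and 0.37 in the biopsies and at 0.11, 0.02 and 0.15 on day 15.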
